A study of Mus musculus with 6 samples.

Results

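The 10 mRNAs described here, Dck, Cd38, Cggbp1, Coq10b, Sgpp1, Cdyl, Dr1, Dusp14, Siah1a and Otud4, were picked for large differences between RNA recovered with GFP-tagged DAZL and input RNA on mouse arrays. They are 10 of 14993 genes with a probe that could be measured, and 22 of the 41174 probes on the array read them. The GFP IP and input arrays therefore chose these genes, and their differences between those arrays are given as a description with no test. RNA was measured on 6 one-colour arrays, 2 for each of 3 groups, in primordial germ cells made in culture from mouse embryonic stem cells of the V6.5 line (mixed C57BL/6 and 129SV background) after 12 days of differentiation. All 3 groups came from cells that carry DAZL fused to GFP and a V5 tag, and RNA was recovered after ultraviolet crosslinking. The groups were total RNA with no antibody (input), RNA recovered with an antibody to PABP1 (PABP1 IP) and the RNA that an anti-GFP antibody brought down (GFP IP). No arrays from cells without the tag were analysed here, the labels do not say what drives the tagged protein, nor whether replicates were separate cultures, so a p-value here reflects the spread between these 6 arrays, which may be technical.

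DAZL is a germ cell protein that binds mRNAs through an RNA recognition motif, mostly in their 3′ untranslated regions, and is known to regulate their translation and stability. It also binds poly(A)-binding proteins, and it is needed for germ cell development in both sexes of the mouse. PABP1, encoded by Pabpc1, coats the poly(A) tails of most cytoplasmic mRNAs, so the PABP1 IP is a sample of polyadenylated mRNA rather than of the targets of one regulator. An RNA immunoprecipitation (IP) measures how much of an mRNA comes down relative to the other mRNAs in that IP, so a higher value is a larger share of the recovered RNA and not more RNA in the cell.

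Each array read 43379 spots, of which 41.5% to 52.6% were well above background by the scanner's flag and none reached saturation. Above background means this flag throughout, and a signal without the flag need not be below background. Signals below were divided by the 75th percentile of their array (scaled signal), which ranged from 63.6 to 75.4 in input, from 105 to 146 in the PABP1 IP and from 158 to 163 in the GFP IP. Slide 1 held GFP IP replicate 2, PABP1 IP replicate 1 and the 2 input arrays, and slide 2 held the remaining array of each IP. Dazl, the mRNA of the tagged protein, was 3.78 ± 0.27 (SE, log2, n = 2 arrays per group) above input in the GFP IP and at -1.81 ± 0.27 against input in the PABP1 IP. The other kept probe of Dazl gave smaller differences, 2.44 in the GFP IP and -0.73 in the PABP1 IP. Of 10 germ cell markers 9 were on the array and 8 were well above background on both input arrays, while the signal of Ddx4 was above background on neither input array. Markers of other cells were present too. Fibroblast markers summed to scaled signals of 91.0 and 122.6 in input and 30.7 and 54.3 in the GFP IP. Cardiac markers summed to 10.5 and 10.9 in input and 2.25 and 2.47 in the GFP IP. In the PABP1 IP the sums were 120.9 and 104.1 for fibroblast and 4.97 and 4.08 for cardiac markers. Of 7 cardiac markers 5 were well above background on both input arrays, and Myh6 and Nppa on neither. Tnni3 was the brightest cardiac marker in input (unscaled signals of 505 and 611). The 4 visceral endoderm markers were not above background on any array. How far these other cells bear on the values of the 10 genes was not tested.

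The 10 genes were dim in input and bright in the GFP IP. A probe was kept if some group had it well above background on both of its arrays, which held for 20 of the 22 probes and 21058 probes in all. The kept probes read unscaled signals of 1.69 to 68.4 in input, 2.0 to 204 in the PABP1 IP and 18.4 to 1780 in the GFP IP. Of 40 values per group (20 probes on 2 arrays), 17 were well above background in input, 34 in the PABP1 IP and 40 in the GFP IP. In input, 7 of the 20 probes were well above background on both arrays, against 79.5% of all kept probes, and 10 were so on neither. The signals of those 10 set no measured level, so their differences over input are bounds, written as "at least". Each bound was computed, array by array, against the lowest signal that was well above background, or against the probe's own signal where that was higher. A bound can be far under the fitted value, and it equals the fitted value for Dusp14 A_51_P322677, whose own input signal was the higher. The bounds hold only for the scanner's background-subtracted signal. With another background correction (normexp), Dck A_51_P500718 and A_52_P602719, Cd38 A_52_P168962 and Otud4 A_52_P569364 were below input in the GFP IP (log2 of -0.48, -0.068, -0.51 and -0.16). All 20 were kept through the GFP IP, and for 3 of them (Dck A_51_P500718, Dusp14 A_52_P297724 and Otud4 A_52_P569364) the GFP IP was the only group well above background on both arrays.

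**Figure D1:**
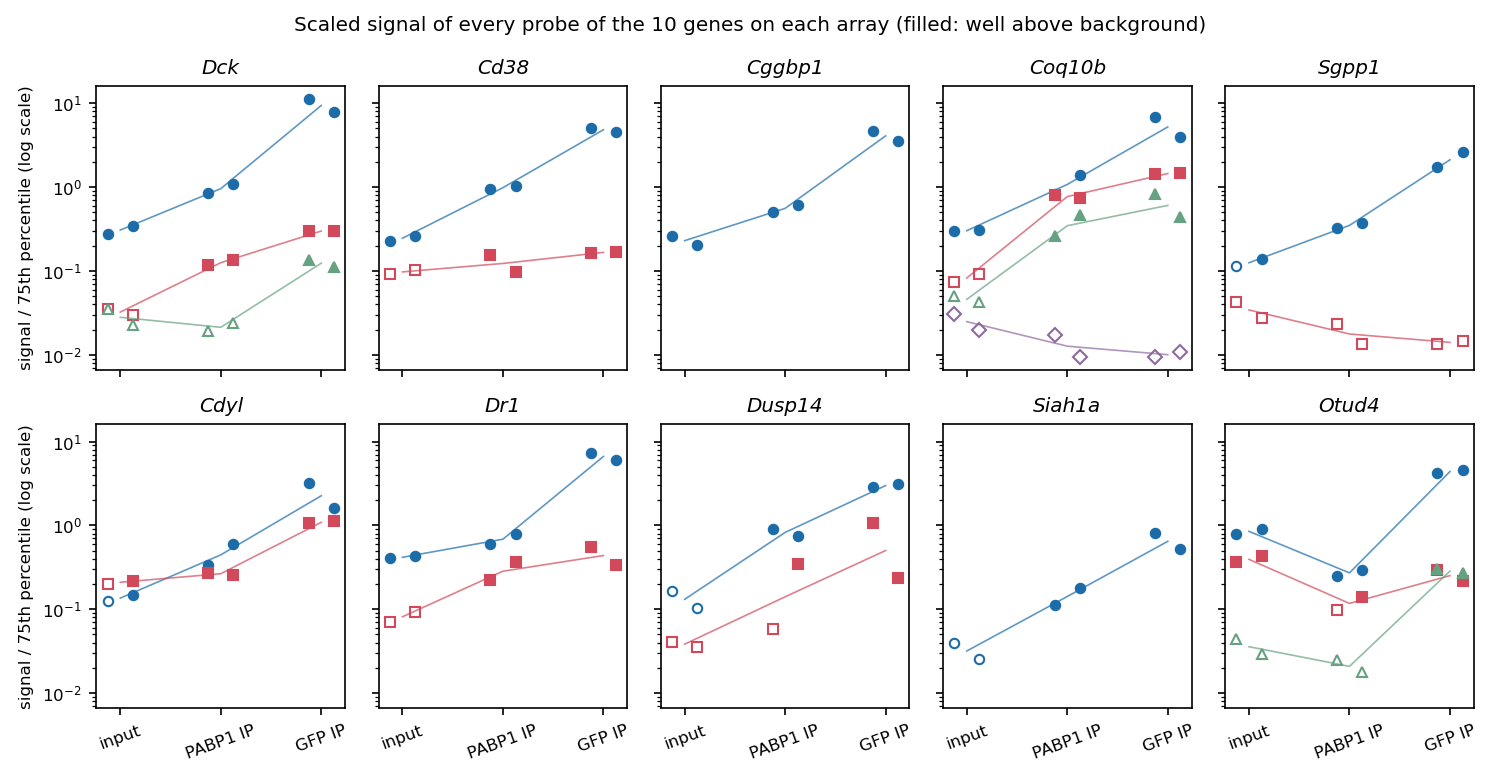
Scaled signal (signal divided by the 75th percentile of the array, log axis) of the 22 probes of the 10 genes on the 6 arrays. Each colour and symbol is a probe, filled points were well above background, open points were not, and lines join the geometric means of the 2 arrays of a group. The brightest probe of every gene is highest in the GFP IP, and that of Otud4 is lower in the PABP1 IP than in input.

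Dck and Cd38 encode enzymes of nucleotide metabolism. Dck is deoxycytidine kinase, which starts the salvage of deoxynucleosides. The brightest of its 3 probes, A_51_P500713, read scaled signals of 0.275 and 0.344 in input, 0.842 and 1.09 in the PABP1 IP and 11.3 and 7.85 in the GFP IP. Both GFP arrays lay above both PABP1 arrays, which lay above both input arrays. The difference between GFP IP and input was 4.94 ± 0.27 (SE, log2, n = 2 arrays per group), or 30.6-fold, which put Dck at rank 1 of all genes by their brightest kept probe. Its next probe, A_52_P602719, had the same order of groups at far lower signals, with 0.0354 and 0.0294 in input, 0.117 and 0.134 in the PABP1 IP and 0.297 and 0.301 in the GFP IP. That is at least 2.56-fold over an input that was not well above background. The dimmest, A_51_P500718, was above background in the GFP IP only (0.135 and 0.113) and at least 1.06-fold over input.

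Cd38 encodes a cell surface enzyme that consumes NAD and makes cyclic ADP-ribose. Probe A_52_P43549 read 0.230 and 0.263 in input, 0.943 and 1.03 in the PABP1 IP and 5.08 and 4.59 in the GFP IP. Again the 3 groups did not overlap, and the GFP IP was 4.30 ± 0.17 above input (19.7-fold). The other Cd38 probe, A_52_P168962, disagreed in size, with 0.0918 and 0.103 in input, 0.156 and 0.0966 in the PABP1 IP and 0.165 and 0.167 in the GFP IP. It gave a difference of at least 1.33-fold over input, and 1 of its PABP1 arrays lay between the 2 input arrays. Cd38 is also known as a marker of blood cells. Of 10 blood markers, 9 were on the array, 2 of these were above background on no array, and their summed scaled signal was 1.34 to 1.84 in input, 2.04 and 0.969 in the PABP1 IP and 0.503 to 1.04 in the GFP IP. The part of blood cells in the Cd38 values was not tested.

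Coq10b and Sgpp1 act on lipids. Coq10b encodes a mitochondrial protein that binds coenzyme Q and is needed for its function in respiration. Its probe A_52_P650553 read 0.297 and 0.306 in input, 0.828 and 1.40 in the PABP1 IP and 6.90 and 3.94 in the GFP IP, 4.11 ± 0.37 above input (17.3-fold). The arrays of slide 2 were the higher ones in both IPs. Probe A_52_P366525 read 0.0733 and 0.0926 in input, 0.802 and 0.740 in the PABP1 IP and 1.45 and 1.45 in the GFP IP, at least 12.3-fold over input. Probe A_51_P255765 was at least 5.18-fold over input, with 0.823 and 0.444 in the GFP IP against 0.258 and 0.464 in the PABP1 IP, so its 2 IPs overlapped. The last Coq10b probe, A_52_P290051, was above background on no array.

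Sgpp1 encodes an enzyme of the endoplasmic reticulum that removes the phosphate from sphingosine 1-phosphate. Its probe A_52_P42221 read 0.114 and 0.138 in input, 0.328 and 0.372 in the PABP1 IP and 1.72 and 2.60 in the GFP IP. The GFP IP was 4.08 ± 0.26 above input (16.9-fold), and here 1 of the 2 input arrays was well above background. Of its GFP arrays the one on slide 1 was higher (slide 2 minus slide 1, log2, -0.60), and of its PABP1 arrays the one on slide 2 (0.18). Its second probe, A_52_P258354, was above background on no array.

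Cggbp1, Cdyl and Dr1 encode nuclear proteins. Cggbp1 binds CGG triplet repeats in DNA. Its single probe, A_52_P620641, read 0.258 and 0.204 in input, 0.503 and 0.618 in the PABP1 IP and 4.68 and 3.56 in the GFP IP, with no overlap between groups. The GFP IP was 4.15 ± 0.24 above input (17.8-fold). Cdyl encodes a chromodomain protein that works with repressors of transcription. Probe A_52_P504743 of Cdyl read 0.125 and 0.147 in input, 0.334 and 0.592 in the PABP1 IP and 3.18 and 1.60 in the GFP IP, 4.06 ± 0.43 above input (16.6-fold). This is one of the wider spreads, since GFP IP replicate 1, on slide 2, was above replicate 2 by a log2 difference of 0.99. The other Cdyl probe, A_52_P276666, spread less, with 0.201 and 0.219 in input, 0.274 and 0.257 in the PABP1 IP and 1.06 and 1.12 in the GFP IP, 2.38 ± 0.16 above input (5.19-fold). For both Cdyl probes input replicate 2 was well above background and input replicate 1 was not.

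Dr1 encodes the beta subunit of NC2, which binds TATA-binding protein and represses transcription. Probe A_52_P462350 read 0.404 and 0.430 in input, 0.596 and 0.788 in the PABP1 IP and 7.28 and 6.07 in the GFP IP. Here the PABP1 IP lay close to input and the GFP IP far above both, at 4.00 ± 0.21 over input (15.9-fold). Probe A_51_P498922 showed another pattern, with 0.0704 and 0.0939 in input, 0.223 and 0.363 in the PABP1 IP and 0.559 and 0.342 in the GFP IP. By that probe Dr1 was at least 3.68-fold over input, and the 2 IPs overlapped.

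Dusp14, Siah1a and Otud4 encode regulators of signalling and protein turnover. Dusp14 is a dual specificity phosphatase. Its probe A_51_P322677 read 0.165 and 0.104 in input, 0.911 and 0.747 in the PABP1 IP and 2.89 and 3.09 in the GFP IP, at least 22.8-fold over an input not well above background. The other Dusp14 probe, A_52_P297724, read 0.0412 and 0.0357 in input, 0.0576 and 0.344 in the PABP1 IP and 1.06 and 0.237 in the GFP IP. Its IP arrays sorted by slide as well as by antibody, since the arrays of slide 2 exceeded those of slide 1 by 2.17 (GFP IP) and 2.58 (PABP1 IP) on the log2 scale. Siah1a encodes a ubiquitin ligase. Its single probe, A_52_P343641, read 0.0395 and 0.0256 in input, 0.112 and 0.179 in the PABP1 IP and 0.804 and 0.519 in the GFP IP, at least 5.54-fold over input. Siah1a has a near-identical copy, Siah1b, and the probe sequences were not used here, so its signal may include Siah1b RNA and its values are uncertain.

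Otud4, a deubiquitinase of the OTU family, was not among the largest differences over input, unlike the other 9 genes. Its brightest probe, A_52_P569355, read 0.794 and 0.907 in input, 0.248 and 0.298 in the PABP1 IP and 4.22 and 4.57 in the GFP IP. The GFP IP was 2.37 ± 0.18 above input (5.18-fold), which is rank 416 among genes. Probe A_51_P505872 read 0.362 and 0.428 in input, 0.0981 and 0.140 in the PABP1 IP and 0.291 and 0.218 in the GFP IP, so it was lower in the GFP IP than in input (-0.64 ± 0.26). Probe A_52_P569364 was above background in the GFP IP only (0.304 and 0.267), at least 2.45-fold over input. Among the 10 genes, Otud4 is the one whose brightest probe fell below input in the PABP1 IP.

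The other 9 genes held ranks 1 to 14 of all genes, in the order Dck (1), Dusp14 (3), Siah1a (5), Cd38 (6), Cggbp1 (7), Coq10b (9), Sgpp1 (10), Cdyl (11) and Dr1 (14). These are ranks of fitted differences, and those of Dusp14 and Siah1a rest on an input not well above background on either array. Those of Sgpp1 and Cdyl rest on an input that was well above background on 1 array only. From rank 6 to rank 14 the differences ran from 4.30 (Cd38) to 4.00 (Dr1), a gap close to their standard errors of 0.17 to 0.43, so this order is loose. Just inside the lower end was Dr1 at 4.00, and just outside were 2010109K11Rik at 3.99, the ubiquitin ligase gene Siah2 at 3.98 and Ube2w at 3.96. The genes between them in rank, AU044698 (4.62), 1700029F09Rik (4.43), Ccdc43 (4.12), 2310007D09Rik (4.04) and 1700049E17Rik (4.04), are not among the 10. AU044698, 2310007D09Rik, 1700049E17Rik and 2010109K11Rik also had an input not well above background on either array. Over the 20 kept probes the median difference was 3.86, against -0.38 over all kept probes. With limma and a Benjamini-Hochberg adjusted p under 0.05, 18 of the 20 were called higher and 0 lower, where 53.2% of all kept probes were called in this comparison, 20.7% higher and 32.5% lower. Since the genes were chosen on this difference, nothing is read from that count.

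**Figure D2:**
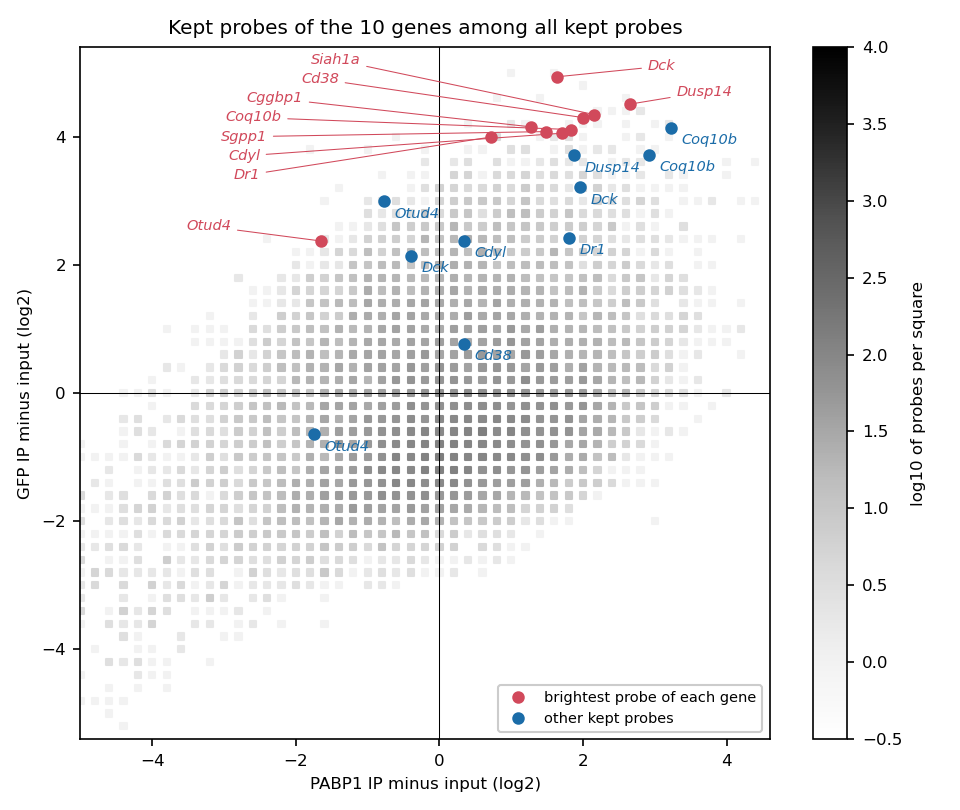
Log2 difference between GFP IP and input (vertical) against log2 difference between PABP1 IP and input (horizontal) for all kept probes (grey squares, shaded by the log10 of the number of probes) and the 20 kept probes of the 10 genes. Both axes share the input arrays, and 70 probes left of the plot are not drawn. The brightest probes of 9 genes lie at 4.00 to 4.94 on the vertical axis, and that of Otud4 at 2.37 and left of 0.

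Whether these mRNAs also came down with PABP1 was asked by comparing the PABP1 IP with input. Both this comparison and the next share arrays with the choice of the genes (the input arrays here, the GFP arrays next), so their directions are not independent of that choice. The adjusted p-values in both are those of the fit over all kept probes and take no account of how the genes were chosen, and the counts over the 10 genes are given as descriptions. Of the 20 kept probes, 13 were higher, 2 were lower and 5 did not pass (limma, adjusted p under 0.05), where 54.7% of all kept probes were called, 30.8% higher and 23.9% lower, and 10 of the 20 had no input array above background. The median was 1.68, against 0.13 over all kept probes. Dusp14 rose at least 6.28-fold by its brightest probe (limma adjusted p = 0.00139) over an input not well above background, and Cd38 rose 4.01-fold (SE 0.17 on the log2 scale, adjusted p = 0.00107). The highest value was that of Coq10b probe A_52_P366525, at 3.23 ± 0.19 (limma adjusted p = 0.000854; at least 6.52-fold). Both groups of that probe were far apart, with input at most 0.0926 and the PABP1 IP at least 0.740.

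Smaller increases were those of Dck (1.64 ± 0.27, limma adjusted p = 0.00499), Sgpp1 (1.48 ± 0.26, adjusted p = 0.00628) and Cggbp1 (1.28 ± 0.24, adjusted p = 0.00766). Siah1a rose by 2.16 ± 0.37 on the fitted scale (limma adjusted p = 0.00612), but at least 1.22-fold is all that its dim input allows. Cdyl (1.71 ± 0.43, limma adjusted p = 0.0208), Coq10b by its brightest probe (1.83 ± 0.37, adjusted p = 0.0102) and Dr1 (0.72 ± 0.21, adjusted p = 0.0351) passed with less margin. The Dr1 call was lost with the percentile over probes above background on all arrays (adjusted p = 0.0919), the array median (0.0878), cyclic loess (0.0681), no filter (0.11), normexp (0.581) and within slide 1 (0.0815). It was also lost when either input array or PABP1 IP replicate 2 was left out (0.152, 0.119 and 0.128), and that of Cdyl without the same arrays (0.0931, 0.0696 and 0.0827) or with normexp (0.473). Normexp also ended the calls of Cggbp1 (0.193), Dck (0.0751) and Sgpp1 (0.886). That of Coq10b was lost without either input array (0.0524 and 0.0502), and that of Cggbp1 without input replicate 2 (0.0523). The dimmer Dr1 probe rose by 1.81 ± 0.36 (limma adjusted p = 0.0102; at least 2.39-fold) and lost its call without input replicate 1 (0.0587) and with normexp (0.949).

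Otud4 fell. Its brightest probe was at -1.64 ± 0.18 (limma adjusted p = 0.00174) and A_51_P505872 at -1.75 ± 0.26 (adjusted p = 0.004), with no overlap between groups for either, while its probe A_52_P569364 was above background in neither group. The dimmest Dck probe was likewise above background in neither group. The other probes that did not pass were those of Cd38 (A_52_P168962, 0.34 ± 0.27, limma adjusted p = 0.332), Cdyl (A_52_P276666, 0.34 ± 0.16, adjusted p = 0.128) and Dusp14 (A_52_P297724, 1.88 ± 1.04). That Dusp14 probe was kept only through the GFP IP, so no test is read for it. With the slide as a block it was at 0.69, and without PABP1 IP replicate 1 it was at 3.17. Its arrays differed by slide in both IPs (2.17 in the GFP IP and 2.58 in the PABP1 IP). Its input was not well above background, so these sizes are fitted values and at least 1.21-fold is the bound.

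The GFP IP was then compared with the PABP1 IP, which asks which mRNAs were a larger share of the RNA recovered with tagged DAZL than of that recovered with PABP1. Of the 20 kept probes 16 were higher, 0 were lower and 4 did not pass (limma, adjusted p under 0.05), where 62.8% of all kept probes were called, 24.4% higher and 38.4% lower. The 16 include Dck A_51_P500718 and Otud4 A_52_P569364, which were kept only through the GFP IP. Neither was above background on a PABP1 array, so no test is read for either. The median was 2.23, against -0.45 over all kept probes, and all 20 differences were above 0, as were 15 with spike-in scaling and 19 with normexp. Otud4 had the largest value of the 10 genes, at 4.02 ± 0.18 (limma adjusted p = 0.00053, 16.2-fold) by its brightest probe. Its probe A_52_P569364 was above background in the GFP IP only and gave at least 4.62-fold, with no test read, and A_51_P505872 gave 1.10 ± 0.26 (adjusted p = 0.0155), a call lost without GFP IP replicate 1 or PABP1 IP replicate 1 (0.0695 and 0.0635), with no filter (0.0511) and with normexp (0.716).

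Dck followed at 3.30 ± 0.27 (limma adjusted p = 0.000608, 9.82-fold) and Dr1 at 3.28 ± 0.21 (adjusted p = 0.00053, 9.70-fold). Cggbp1 was 2.87 ± 0.24 higher (limma adjusted p = 0.000619, 7.32-fold) and Sgpp1 2.60 ± 0.26 (adjusted p = 0.000893, 6.06-fold). By its brightest probe every one of the 10 genes had both GFP arrays above both PABP1 arrays. The share of all kept probes with such a gap is not given here. Cdyl (2.34 ± 0.43, limma adjusted p = 0.00608), Cd38 (2.29 ± 0.17, adjusted p = 0.000569), Coq10b (2.28 ± 0.37, adjusted p = 0.00406), Siah1a (2.19 ± 0.37, adjusted p = 0.00478) and Dusp14 (1.86 ± 0.27, adjusted p = 0.00273) were between 3.62-fold and 5.07-fold higher. With spike-in scaling these calls were lost (limma adjusted p = 0.0595, 0.0719, 0.0766, 0.109 and 0.306, in the same order).

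The genes differed in how the distance between input and GFP IP split at the PABP1 IP. For Dr1 most of the distance between input and GFP IP lay between the PABP1 IP and the GFP IP (0.72 and 3.28). For Dusp14 the larger step was from input to the PABP1 IP (2.65 and 1.86), though its input was not well above background and with normexp the order turned (0.52 and 1.39). For Otud4 the 2 steps had opposite signs (-1.64 and 4.02). These steps share the PABP1 arrays, so a high PABP1 value lengthens one and shortens the other, and their difference was not tested. The probes that did not pass in GFP IP against PABP1 IP were A_52_P168962 of Cd38 (0.44 ± 0.27, limma adjusted p = 0.197), A_51_P255765 of Coq10b (0.81 ± 0.41, adjusted p = 0.138), A_51_P498922 of Dr1 (0.62 ± 0.36, adjusted p = 0.185) and A_52_P297724 of Dusp14 (1.83 ± 1.04). The Dusp14 probe was kept only through the GFP IP, so no test is read for it. With the slide as a block 19 of the 20 passed, among them those of Coq10b (limma adjusted p = 0.00696) and Dr1 (0.0331), at the same differences. The 19 include the 3 probes kept only through the GFP IP, for which no test is read. The Cd38 probe passed with the percentile over probes above background on all arrays (0.0426), the array median (0.0379), quantile normalization (0.0458), cyclic loess (0.017) and without PABP1 IP replicate 1 (0.0349).

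**Figure D3:**
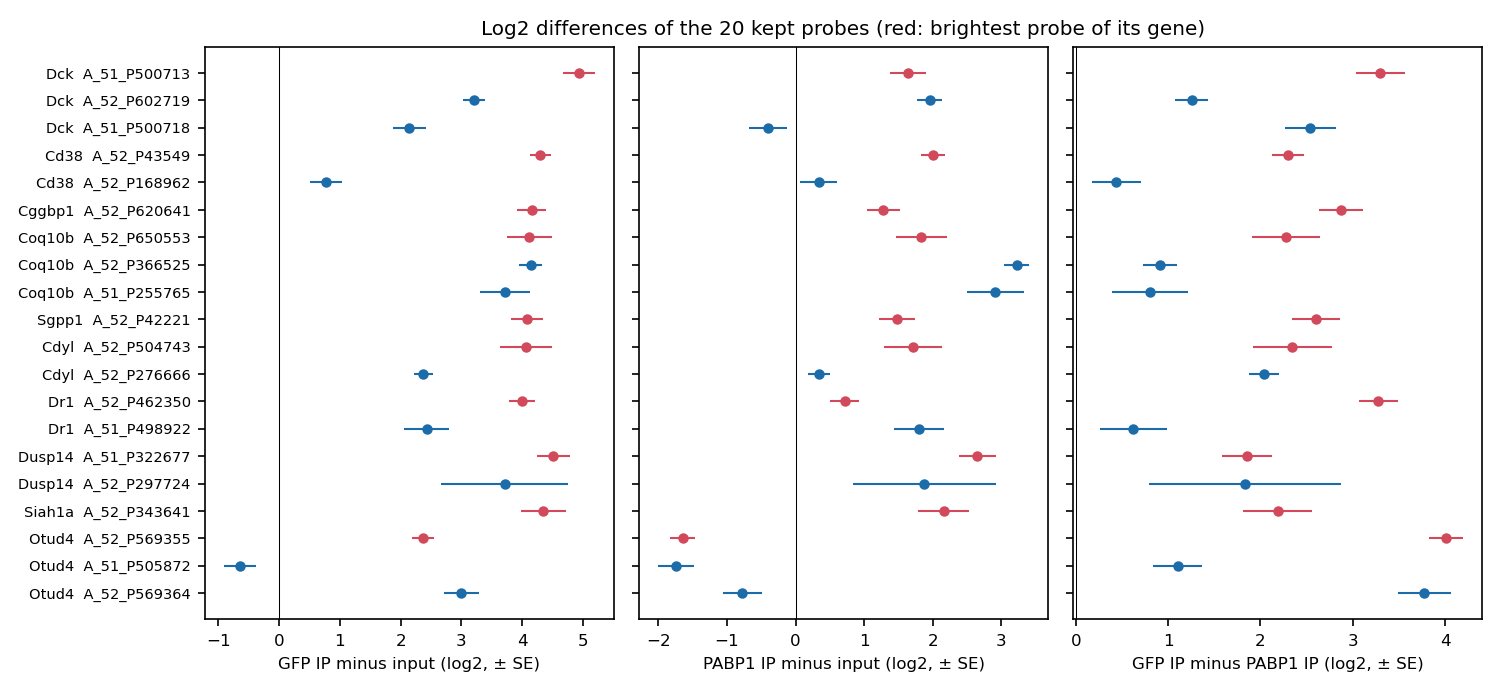
Log2 differences (± SE of the fit, n = 2 arrays per group) of the 20 kept probes for the 3 comparisons, with the brightest probe of each gene in red and its other probes in blue. In GFP IP minus PABP1 IP all 20 points lie above 0, from 0.44 to 4.02, while probes of 1 gene lie far apart for Dck, Cd38, Dr1 and Otud4.

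Several probes of 1 gene did not give 1 value. Over the 4693 genes with at least 2 kept probes, the range between probes in GFP IP against input had a median of 0.82 and quartiles of 0.38 and 1.49. The range was 3.64 for Otud4 (at or above 97.9% of those genes), 3.52 for Cd38 (97.6%), 2.79 for Dck (94.4%), 1.68 for Cdyl (79.7%), 1.57 for Dr1 (77.1%), 0.80 for Dusp14 (49.3%) and 0.42 for Coq10b (27.7%). These are ranges of fitted differences, and for each of these genes except Cdyl they include a probe whose input was not well above background on either array. Both Cdyl probes were well above background on 1 input array only. In GFP IP against PABP1 IP the range of Coq10b was 1.47 (at or above 72.4% of those genes), that of Dr1 2.66 (90.1%) and that of Cdyl 0.31 (30.4%). Cggbp1, Sgpp1 and Siah1a rest on 1 kept probe each. For Otud4 the disagreement was one of sign against input but not against PABP1, where its 3 probes were higher at 1.10 to 4.02. For Dck, Cd38, Cdyl, Dr1 and Dusp14 the brightest probe gave the largest fitted value, and for Coq10b (4.14) and Otud4 a dimmer one did. With the mean of the kept probes in place of the brightest one, Cd38 was at 2.54 and Dck at 3.43 over input.

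The slides moved with several of these genes. On slide 2 both the GFP array and the PABP1 array were higher than their slide 1 replicates for 12 of the 20 kept probes (60%), against 27.6% of all kept probes. The median excess of slide 2 was 0.26 in the GFP IP and 0.31 in the PABP1 IP, against -0.07 and -0.10 over all kept probes. The largest excess, 0.70 to 2.58, was that of Dusp14 (A_52_P297724), Cdyl (A_52_P504743), Coq10b (A_51_P255765 and A_52_P650553) and Dr1 (A_51_P498922), while the brightest Cd38 probe was at 0.15 and 0.12 and the brightest Dusp14 probe at -0.10 and -0.29 in the 2 IPs. Both input arrays were on slide 1. Within slide 1, where each IP has 1 array, the median over the 20 probes was 3.42 for GFP IP against input and 1.34 for PABP1 IP against input, and the median for GFP IP against PABP1 IP was 2.23 within slide 1 and 2.19 within slide 2.

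Relatives and partners of the 10 genes were taken as a list of 42 genes, of which 41 were on the array and 37 were tested. In GFP IP against PABP1 IP, 9 were higher, 20 lower and 8 did not pass (limma, adjusted p under 0.05). Their median was -0.74, against -0.45 over all kept probes, of which 24.4% were higher and 38.4% lower. Each relative is read by its brightest probe, and over the brightest kept probe of every gene the median was -0.61. There 9578 genes were called, 34.2% of them higher. Against input 7 of the relatives were higher, 8 lower and 22 did not pass in the GFP IP (20.7% higher and 32.5% lower over all kept probes), and 20, 6 and 11 in the PABP1 IP (30.8% and 23.9%). By their brightest probe the 7 tested genes of coenzyme Q synthesis were all lower in GFP IP against PABP1 IP, from -2.01 to -0.72, while Coq10b was higher. A second kept probe was at -1.19 for Coq4, -1.21 for Coq7, -0.92 for Pdss1 and 0.40 for Coq5, the last opposite in sign to the brightest Coq5 probe (-0.72). Coq4, which helps to organise the synthesis enzymes, was lowest at -2.01 ± 0.19 (limma adjusted p = 0.000769). Fewer passed under other treatments of the scale or filter, namely 2 with the percentile over probes above background on all arrays, the array median, cyclic loess or no filter, and 3 with quantile normalization, and under cyclic loess 1 of the 7 values was above 0. Without PABP1 IP replicate 1, 4 passed. The 3 other deoxynucleoside kinase genes, Tk1, Tk2 and Dguok, were lower as well (-1.45 to -1.12), as was Bst1, the paralogue of Cd38 (-1.86 ± 0.23, limma adjusted p = 0.00172).

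Some close relatives rose. The SIAH ligase genes Siah1b (2.32 ± 0.15, limma adjusted p = 0.00053, with another probe at 1.91) and Siah2 (2.16 ± 0.29, adjusted p = 0.00217) were both higher in GFP IP against PABP1 IP, as was Cdyl2, the paralogue of Cdyl (2.27 ± 0.15, adjusted p = 0.00053, with another probe at 2.61). Siah1b read unscaled signals of 459 and 530 in input, 1170 and 1540 in the PABP1 IP and 8720 and 8700 in the GFP IP. Over the 17 settings run on the 37 relatives, the main one included, 0 to 11 were higher in GFP IP against PABP1 IP and 7 to 25 lower, the 0 and the 25 with spike-in scaling. The 8 OTU family genes were split, with 2 higher, 5 lower and 1 not past, and of 9 dual specificity phosphatase genes 3 were higher, 2 lower and 4 did not pass, with Dusp22 at -1.66 ± 0.34 (limma adjusted p = 0.00922). Among those counted as higher, Otud1 and Dusp16 were above background in the GFP IP only, so they were kept through that group and no size or test is read for them. Otud1 read unscaled signals of 1.99 and 4.95 in the PABP1 IP and 14.5 and 13.2 in the GFP IP, and Dusp16 1.85 and 1.81 against 7.98 and 11.7. With normexp both fell below 0 (-0.05 and -0.10). The calls of Siah1b, Siah2 and Cdyl2 were lost with spike-in scaling (limma adjusted p = 0.0642, 0.121 and 0.0807). Dusp22 lost its call on the scale of the median (0.0517) and after cyclic loess (0.0678).

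**Figure D4:**
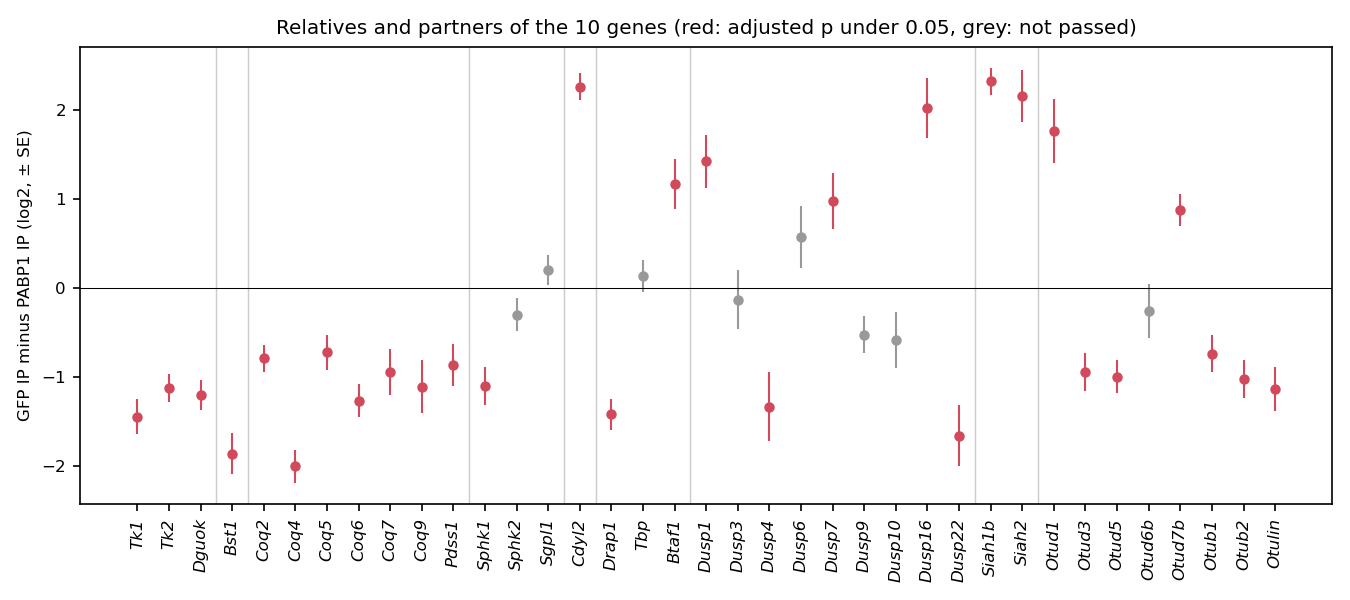
Log2 difference between GFP IP and PABP1 IP (± SE of the fit, n = 2 arrays per group) of the 37 tested relatives and partners of the 10 genes, grouped by family between the grey lines. Red points passed the adjusted p of 0.05. Each gene is shown by its brightest kept probe, and 2 of the red points, Otud1 and Dusp16, had no PABP1 array above background. The coenzyme Q genes and deoxynucleoside kinases lie below 0, and Siah1b, Siah2 and Cdyl2 lie between 2.16 and 2.32.

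Likeness to the 10 genes was measured as the Euclidean distance between the 6 centred log2 values of a gene and the median profile of the 10. Of 14977 other genes, the nearest were Dmrt1, a transcription factor gene of the gonad, at 0.58, Siah2 at 0.60, Gabpb1 at 0.68, Ttc33 at 0.70 and Zfp185 at 0.71. The input signal of Dmrt1 was above background on neither array and that of Zfp185 on 1 of 2, so their distances rest in part on unmeasured levels. Each of the 10 also enters the median profile it is set against. Cggbp1 (0.43) and Cd38 (0.54) were nearer to the median profile than any of these, Dusp14 lay at 1.34 with 47 other genes nearer, and Otud4 at 3.30 with 1499 nearer.

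In the authors' deposited table the group means could be tied to a single probe for 4 of the genes with a measured probe. There the ratio of GFP IP to PABP1 IP was 9.98 for Cggbp1, 9.37 for Sgpp1, 6.88 for Coq10b (A_52_P650553) and 5.79 for Siah1a in the authors' deposited table. The ratio of GFP IP to input was 136 for Cggbp1, 42.9 for Coq10b, 13.5 for Sgpp1 and 576 for Siah1a in the authors' deposited table, whose input means go down to values near 0. Cd38 has 2 entries there that could not be tied to its 2 probes, with ratios of GFP IP to input of 388 and 0.488. Per its header, that table holds background-subtracted signals normalized to the median.

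The size of the differences over input depended on the treatment of background. With a normexp correction in place of the scanner's background-subtracted signal, the brightest probes gave 0.52 (Siah1a) to 3.17 (Dck) for GFP IP against input, and all 10 stayed above 0. In PABP1 IP against input the normexp values were -0.84 to 0.79, 8 of 10 were above 0 and 4 passed. In GFP IP against PABP1 IP all 10 passed, at 0.73 to 2.78. With spike-in scaling all 10 were above 0 in each comparison, 5 passed in GFP IP against PABP1 IP, and Otud4 was no longer below input in the PABP1 IP (0.61, limma adjusted p = 0.274).

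**Figure D5:**
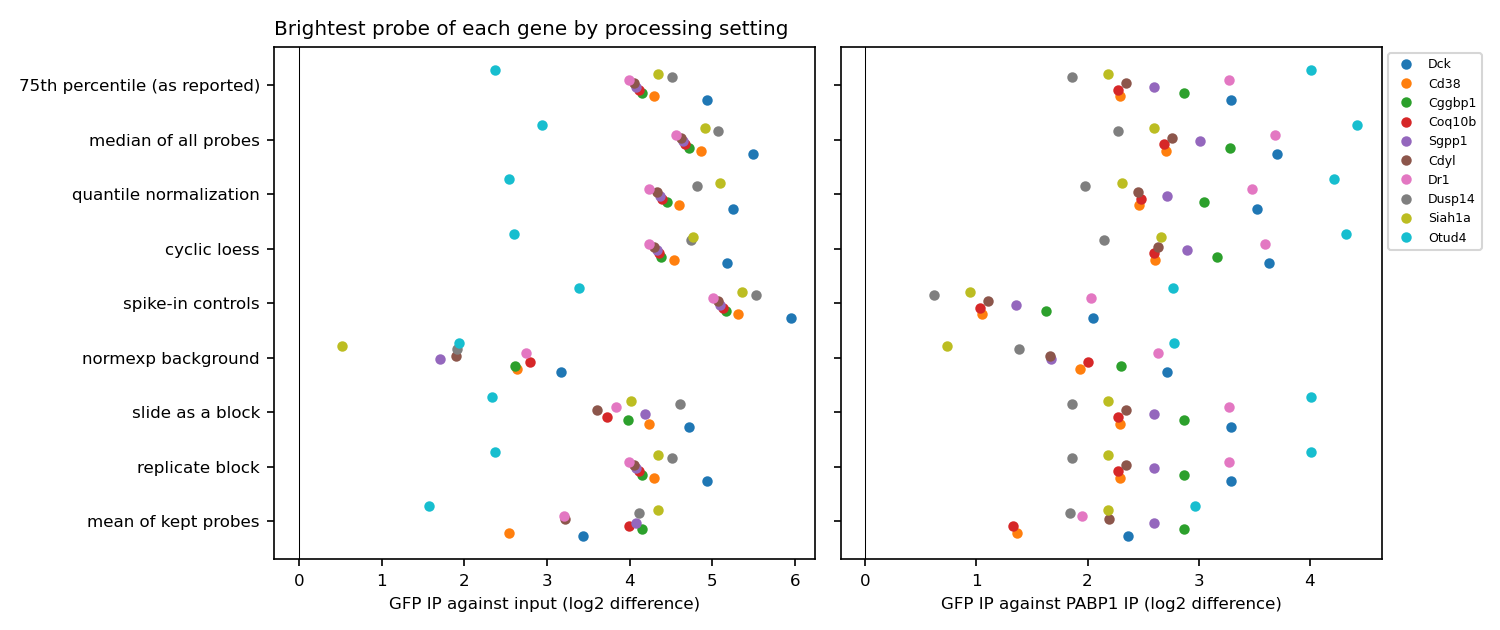
Log2 difference of the brightest probe of each gene in GFP IP against input (left) and GFP IP against PABP1 IP (right) under 9 processing settings (rows), 1 point per gene. Every point lies above 0 in both panels, with the lowest values for Siah1a under normexp (0.52, left) and Dusp14 under spike-in scaling (0.61, right).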

How the data were processed

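The intensity of each spot came from scanner files made with Agilent Feature Extraction 9.1.3.1, per the file headers (gProcessedSignal, background-subtracted and not normalized between arrays). The authors' deposited table holds group means of background-subtracted signal normalized to the median, per the file headers, and an unexplained quality score from -0.294 to 1.00 that was not used.

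The analysis took log2 of gProcessedSignal minus the 75th percentile of each array, averaged over the spots of a probe without outlier spots. Probes well above background (by more than 0.5 of their spots) on both arrays of at least 1 group were kept. The brightest kept probe of a gene was the one with the highest mean log2 scaled signal over all 6 arrays. Groups came from the sample titles. All 6 arrays were fitted together with limma (version 3.58.1, R 4.3.3; a group term only, default eBayes settings, 3 residual degrees of freedom), with Benjamini-Hochberg adjustment over the 21058 kept probes and a threshold of 0.05. No test was read for GFP IP against input. The number of arrays limits the precision. The fit was also run on simulated data with independent errors and no slide difference, so that run does not cover the slide differences seen here.

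The 10 genes, the list of relatives and the marker lists were chosen with earlier results of these data known. Of the 10 genes, 9 matched 18 probes by the files' gene names, and 4 probes named 1500041J02Rik were matched to Coq10b through RefSeq accessions and that name. The text names all 10 genes with every probe, up to 8 relatives with the largest difference past the threshold in GFP IP against PABP1 IP, and the 5 nearest genes by profile. Alternatives were scaling, background, filter, unit, variance model, replicate and slide blocks, leaving out arrays, and the authors' means. Probe and transcript sequences were not used here.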

Additional observations from a re-analysis of the deposited data

How the results depend on the processing

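Leaving out 1 array at a time, the kept probes of the 10 genes called in GFP IP against PABP1 IP numbered 15 to 17 (16 with all arrays) and in PABP1 IP against input 11 to 16 (15). Over all probes the calls numbered 5699 to 9580 in GFP IP against input (11195), 7490 to 9849 in PABP1 IP against input (11517) and 10840 to 12414 in GFP IP against PABP1 IP (13222), lowest without an input array in the first 2. Spike-in scaling gave 7094 calls in GFP IP against input and 18018 in PABP1 IP against input, and 7 of the 20 probes in GFP IP against PABP1 IP. With no filter on dim probes 21803 were called in GFP IP against input. Normexp left 8 of the 20 called in PABP1 IP against input.

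Spike-in scaling reversed Otud4 A_51_P505872 in all 3 comparisons (0.37 and 0.51 over input in the GFP and PABP1 IPs, and -0.14 between the IPs). In PABP1 IP against input it reversed Otud4 A_52_P569355 (0.61) and A_52_P569364 (1.48) and Dck A_51_P500718 (1.86), of which the last 2 were above background in neither group. In GFP IP against PABP1 IP it reversed Coq10b A_52_P366525 (-0.33), and Cd38 A_52_P168962 (-0.81), Dr1 A_51_P498922 (-0.62) and Coq10b A_51_P255765 (-0.44), which were not called, were below 0 too. Normexp reversed, in GFP IP against input, Dck A_51_P500718 (-0.48) and A_52_P602719 (-0.068), Cd38 A_52_P168962 (-0.51) and Otud4 A_52_P569364 (-0.16), and in PABP1 IP against input Siah1a (-0.22) and Dck A_52_P602719 (-0.26). The cause was not tested. The median of all kept probes was -0.38, 0.13 and -0.45 in the 3 comparisons and 0.64, 2.39 and -1.70 with spike-in scaling, where the medians over the 20 probes were 4.87, 3.93 and 0.99.

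The share of calls that were higher moved with the scale. In GFP IP against input it was 39%, and 70.6% with the median of all probes, 56.5% with cyclic loess, 92.7% with spike-ins, 28.5% with normexp and 17.5% with no filter. In GFP IP against PABP1 IP it was 38.9%, and 52.8% with the percentile over probes above background on all arrays, 53.6%, 56.9%, 49% (quantile) and 8.19% (spike-ins), and in PABP1 IP against input 56.3% and 97.6% (spike-ins).

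Deviations of arrays with the same replicate number correlated at 0.154 (input and PABP1 IP), -0.0196 (input and GFP IP) and -0.624 (the 2 IPs). IP arrays on the same slide carry different numbers, so number and slide cannot be told apart between the IPs. Whether the numbers pair the arrays is therefore not settled. A replicate block gave 9392, 10109 and 11884 calls over all probes in the order above, with 14 of the 20 probes in PABP1 IP against input and 16 in GFP IP against PABP1 IP. Under it Dr1 A_52_P462350 (adjusted p = 0.0681) and Cdyl A_52_P504743 (0.0533) did not pass against input. The crossed pairing, chosen after seeing the data and the same as the slides for the IPs, gave 12704, 12364 and 14427 calls. Signals near background limit every value over input.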
